A study of Mus musculus with 33 samples.

Results

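Ovaries labelled Fshb(+/-) were compared with ovaries labelled WT across every expressed gene. The comparison rested on 6 of the 33 libraries in the series, 3 labelled Fshb(+/-) and 3 labelled WT, chosen by their titles and genotype labels in the first of 3 experiments. All were made from polyadenylated RNA of mouse ovary. The same experiment held 3 libraries labelled Fshb(-/-), which shared the estimate of spread and whose values stand beside the others. The remaining experiments held ovaries labelled Fshb(-/-) HFSHB and Fshb(-/-), and ovaries labelled by stage of the estrous cycle. Beside these stages stood a group labelled KO (anestrus) for stage and WT for genotype. Its titles carry both WT and KO, so its labels alone leave its genotype unclear. Its levels of Inhba, Amh and Nt5e are given below. The titles of the 6 libraries compared carry the tag NS, which was not explained in the sources used here. For the 6 libraries the stage is entered as not applicable, and strain, age, the construction of the Fshb allele and whether each library came from a separate animal were not given in the sources used here. P-values therefore measure only the spread between these libraries.

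Fshb encodes the beta subunit of follicle-stimulating hormone, which gonadotrophs of the pituitary join to the common alpha subunit and secrete. The hormone binds Fshr on granulosa cells, the cells that surround the oocyte, and drives follicles past the preantral stage. Its known granulosa targets include Cyp19a1, the aromatase that makes estradiol, and Inha and Inhba, subunits of inhibin and activin. Mice that lack Fshb are known for follicles that stop before the antral stage, while heterozygous females are fertile. The ovary itself is not known as a source of the hormone.

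Fshb was counted in the libraries labelled Fshb(+/-) and hardly at all in those labelled WT. The 3 libraries labelled Fshb(+/-) held 43, 60 and 106 counts, against 1, 1 and 0 counts in the libraries labelled WT. Every heterozygous library stood above every WT library, and the summed counts, 209 against 2, differed 110-fold per total count, with a 95% exact counting interval of 30.0 to 913. The difference passed the test (adjusted p = 0.00576). Libraries labelled Fshb(-/-) had 4.12, 5.79 and 5.04 CPM (counts per 1 M counts of a library, scaled by TMM factors), against 0.061, 0.062 and 0 CPM in the libraries labelled WT, so the values labelled Fshb(+/-) and Fshb(-/-) overlapped each other and lay above those labelled WT. A count over the whole gene does not show which part of it was transcribed, so it does not check the genotype, and each direction below is between libraries as labelled. In the other experiments Fshb had 4.6 to 15.0 CPM (per total count) in the ovaries labelled WT at stage DE, while it had 0 counts in 2 of the 4 libraries labelled PE and 1 of the 4 labelled E, the others of these having 2.58 to 10.7 CPM. Ovaries labelled Fshb(-/-) HFSHB had 10.4 to 20.8 CPM of Fshb and those labelled Fshb(-/-) in the second experiment 5.75 to 8.61 CPM. The group labelled KO (anestrus) for stage and WT for genotype had 6.96 to 8.26 CPM. Leaving that group aside, a WT label went with a value near 0 in some libraries and not in others.

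Across all genes, 15 of 17223 tested passed an adjusted p of 0.05 by edgeR, or 0.0871%, and a gene is termed called below when it did so, unless another tool is named. All 15 were higher in the libraries labelled Fshb(+/-), and none was lower. In each of the 15 the lowest Fshb(+/-) library was above the highest WT library, which held for 15.3% of all genes tested in either direction and for 6.11% in the higher direction. The count depended on the test: DESeq2 called 341 genes, or 1.98%, with 164 higher (0.952%) and 177 lower (1.03%), and limma voom with quality weights called 30, or 0.174%; both sets of calls included the 15. At an unadjusted p under 0.05, 944 genes were higher and 839 lower, or 5.48% and 4.87%. For comparison, the Fshb(-/-) ovaries differed from the same WT ovaries at 1353 genes, or 7.86%, in the same fit, 4.52% of the genes tested being higher and 3.33% lower.

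The 15 genes were Fshb, Glo1, Nt5e, the predicted gene Gm8909, the antisense RNA AC165951.1, and 10 genes or pseudogenes that are close copies of another gene, 94.5% identical or more over the aligned part. Of the names, 12 are those of predicted models or pseudogenes.

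**Figure D1:**
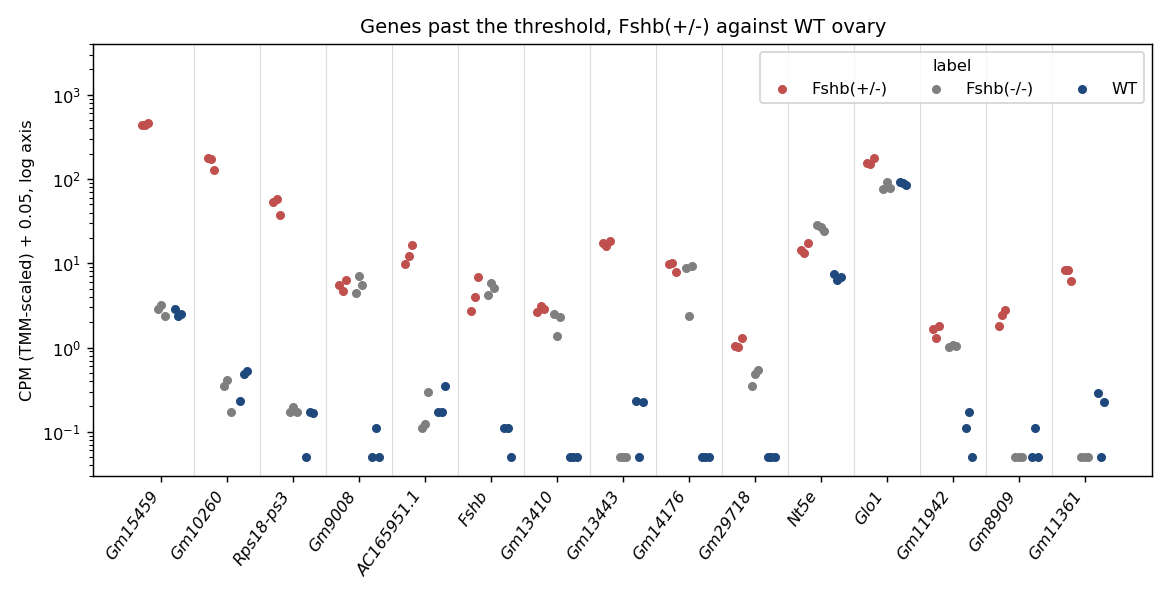
Level of each of the 15 genes past the threshold in every library of the first experiment, as TMM-scaled CPM plus 0.05 on a log axis, with one point per library and the groups drawn in the order Fshb(+/-), Fshb(-/-), WT. All 3 Fshb(+/-) points lie above all 3 WT points for each gene; Fshb(-/-) points lie with Fshb(+/-) for some genes, such as Gm9008, and with WT for others, such as Gm15459.

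Copies of Rps18 and Hspa8 are shown first by sequence, because few bases separate each from the gene it resembles and the estimated counts rest on those bases. Each copy's transcript was matched to the named protein-coding gene it resembles most. The sequences are from the GENCODE M21 transcripts on GRCm38 and are coding stretches of 90 bases, 5′ to 3′, with capitals at the bases where copy and gene differ and positions counted from 1 at the coding start of the gene. Rps18, a protein of the small ribosomal subunit, lies at chr17:33951999-33956001 on the minus strand. Its 3 called copies lie at chr13:97760072-97760632 (Gm10260, minus strand), chr13:28257528-28258134 (Gm11361, plus strand) and chr8:107262793-107263248 (Rps18-ps3, minus strand). All 3 copies carry A337C relative to Rps18, the first capital below. In this window Gm10260 also carries G371A.
Rps18: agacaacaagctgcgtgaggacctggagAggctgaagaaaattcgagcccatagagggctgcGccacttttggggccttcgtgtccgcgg
Gm10260: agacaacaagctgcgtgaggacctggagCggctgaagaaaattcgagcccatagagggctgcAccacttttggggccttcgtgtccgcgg
Gm11361: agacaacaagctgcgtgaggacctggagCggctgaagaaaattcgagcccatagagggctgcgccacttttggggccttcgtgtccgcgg
Rps18-ps3: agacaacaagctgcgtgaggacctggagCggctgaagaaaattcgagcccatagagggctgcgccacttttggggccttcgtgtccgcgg

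Hspa8, the constitutive heat shock cognate chaperone, lies at chr9:40800984-40810087 on the plus strand, and its processed pseudogene Gm15459 at chr5:5781615-5783555 on the minus strand. The aligned part of Gm15459, its full 1941 bases, was 99.7% identical to Hspa8, with 5 mismatches. The stretch shown holds the first of them, G114A.
Hspa8: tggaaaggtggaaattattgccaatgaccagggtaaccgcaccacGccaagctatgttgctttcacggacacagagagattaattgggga
Gm15459: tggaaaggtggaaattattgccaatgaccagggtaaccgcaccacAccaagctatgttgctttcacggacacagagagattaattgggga

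Glo1, glyoxalase 1, which detoxifies methylglyoxal together with glutathione, lies at chr17:30584936-30626871 on the minus strand. Its processed pseudogene Gm13443 lies at chr2:35340409-35340963 on the plus strand. The copy was 99.5% identical over 555 bases, with 3 mismatches.

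Of the other copies, Gm9008 was 99.1% identical to Rnf26, Gm11942 97.4% to Rplp1 and Gm13410 94.5% to Ddx6. None of the 10 copies lay on chromosome 9 or 17, yet the gene that each resembled most lay on 1 of these chromosomes in all 10. Among the 678 tested predicted models and pseudogenes with such a match, the closest gene lay on chromosome 9 or 17 for 10.2%. Hspa8, Rnf26 and Ddx6 lay between positions 40800984 and 44640731 of chromosome 9, and Rplp1 at chr9:61913284-61914542. Nt5e is on chromosome 9 and Glo1, AC165951.1 and Gm8909 are on chromosome 17, so that 14 of the 15 genes, all but Fshb on chromosome 2, either lay on chromosome 9 or 17 or were closest to a gene there, 6 for chromosome 9 and 8 for chromosome 17. Of all genes tested, 10.7% lie on these chromosomes. The 2 chromosomes were picked from these same called genes, so the shares beside them are no test. Nor are the genes separate cases, since 3 of the copies share Rps18 and Gm13443 is a copy of Glo1, itself among the 15.

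The largest of these counts belonged to Gm15459. It had 436, 436 and 460 CPM in the libraries labelled Fshb(+/-), against 2.79, 2.35 and 2.43 CPM in those labelled WT and 2.79, 3.15 and 2.34 CPM in those labelled Fshb(-/-). The heterozygous libraries agreed closely with each other and stood far above both other groups. The log2 fold change against WT was 7.46 ± 0.15 (SE; adjusted p = 2.06e-08), and it kept its call when any 1 library was left out. Hspa8 itself had 1500, 1490 and 1520 CPM in libraries labelled Fshb(+/-), against 1930, 1870 and 1430 CPM in libraries labelled WT. Hspa8 and its tested copies summed to 1950 ± 29.7 CPM in Fshb(+/-) and 1750 ± 277 CPM in WT ovaries (SD, n = 3 each), a log2 difference of 0.16 ± 0.13 (SE) that did not pass (adjusted p = 0.72).

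For Rps18 the copies were again higher in the libraries labelled Fshb(+/-). Unlike Hspa8, whose values overlapped, the gene itself was lower there than in every WT library. Gm10260 had 177, 172 and 129 CPM in libraries labelled Fshb(+/-), against 0.182, 0.432 and 0.475 CPM in WT. Rps18-ps3 had 52.9, 58.3 and 37.7 CPM against 0, 0.124 and 0.119 CPM, and Gm11361 had 8.2, 8.29 and 6.12 CPM against 0.242, 0 and 0.178 CPM. All 3 copies rose together in the heterozygous libraries, while Rps18 averaged 278 ± 42.8 CPM in Fshb(+/-) and 481 ± 50.3 CPM in WT (SD, n = 3 each), with a log2 fold change of -0.79 ± 0.18 (SE; adjusted p = 0.18). The 3 copies took 43.0% to 44.7% of the summed CPM in the heterozygous libraries, against 0.0937% to 0.143% in WT. The sum was 494 ± 80.4 CPM in Fshb(+/-) and 482 ± 50.5 CPM in WT (SD, n = 3 each), a log2 difference of 0.04 ± 0.18 (SE; adjusted p = 0.96). Since the quantifier divides reads among near-identical transcripts, the level of each copy is uncertain, and the sum is the firmer value.

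**Figure D2:**
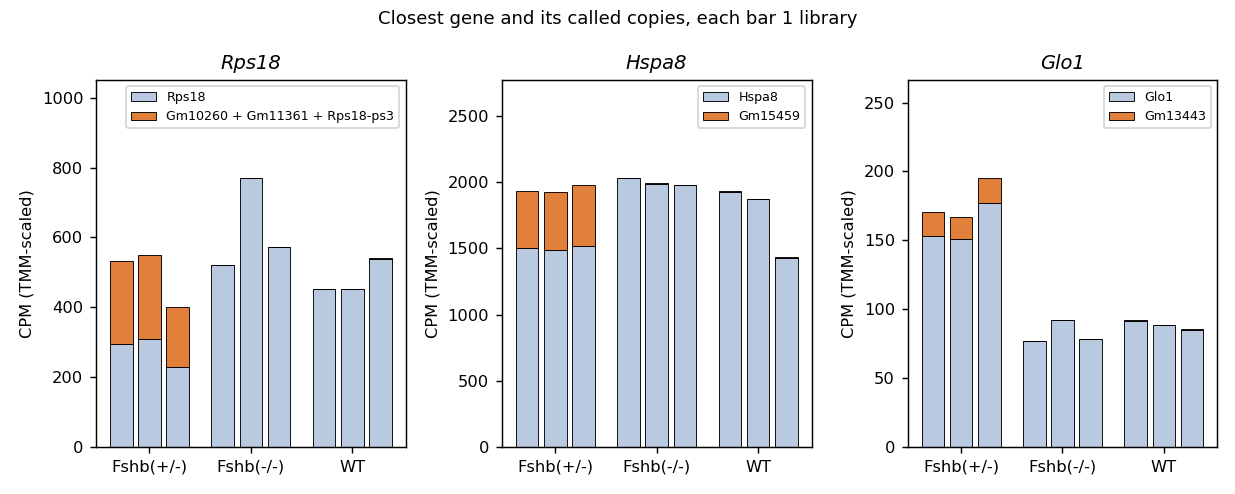
Stacked bars of TMM-scaled CPM of Rps18, Hspa8 and Glo1 (blue) and of their called copies (orange), one bar per library, with groups in the order Fshb(+/-), Fshb(-/-), WT. Copies are visible only in the Fshb(+/-) bars; the stacked height overlaps between Fshb(+/-) and WT for Rps18 and Hspa8, and for Glo1 it is 166 to 195 CPM in Fshb(+/-) and 85.3 to 91.8 CPM in WT.

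The other copies were counted at lower levels. Gm13443 had 17.4, 15.8 and 18.3 CPM in libraries labelled Fshb(+/-), against 0.182, 0 and 0.178 CPM in WT and 0 in all 3 libraries labelled Fshb(-/-). Gm14176 had 9.85, 10.1 and 7.74 CPM against 0 in all WT libraries, at least 50.9-fold higher by a floor of 3 counts per WT library. Gm13410, with 42, 47 and 43 counts against 0, was at least 15.4-fold higher, and Gm29718, with 16, 15 and 19 counts against 0, at least 5.84-fold higher. Gm9008 had 90, 71 and 97 counts against 0, 1 and 0, a ratio of 271 with a counting interval of 48.2 to 10800, and Gm11942 had 26, 19 and 27 counts against 1, 2 and 0, a ratio of 25.2 with an interval of 8.29 to 125. Intervals and floors cover counting error only. In libraries labelled Fshb(-/-), Gm9008 had 4.36, 6.96 and 5.47 CPM, Gm14176 8.85, 2.35 and 9.16 CPM, and Gm13410 2.42, 1.32 and 2.27 CPM, all above the highest WT value. The calls of Gm14176, Gm29718 and Gm11942 were lost when any 1 library was left out (adjusted p from 0.054 to 0.12 over these settings), and that of Gm11361 in all but 1 such setting (0.027 to 0.24).

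Adding each tested copy to its closest gene before the test, an alternative chosen after the values were seen, left 3 of 16555 genes past the threshold: AC165951.1, Fshb and Glo1.

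Glo1 rose in the libraries labelled Fshb(+/-), and the rise was larger once its copy was added. It had 153, 151 and 177 CPM in these libraries, against 91.6, 88.8 and 85.1 CPM in WT and 76.6, 92.3 and 78.0 CPM in Fshb(-/-). The heterozygous values lay apart from both other groups, and the Fshb(-/-) and WT values overlapped. The log2 fold change against WT was 0.85 ± 0.11 (SE; adjusted p = 0.0279), and 1.0 ± 0.11 (SE; adjusted p = 0.027) for Glo1 plus Gm13443. Leaving out any 1 library kept the fold change between 0.78 and 0.90 but ended the call, with adjusted p between 0.068 and 0.16. The call was also lost in the fit of the 6 libraries alone and with a replicate block.

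Of the 27 tested genes within 1 Mb of Glo1, 1 was called by edgeR, AC165951.1, and 2 by DESeq2 and by voom, AC165951.1 and Dnah8. Of all genes edgeR called 0.0871%, DESeq2 1.98% and voom 0.174%. In 7 of the 27 all Fshb(+/-) libraries were above all WT libraries, against 6.11% of all genes. AC165951.1 is an antisense RNA at chr17:30920338-30963220 on the minus strand that overlaps the incretin receptor gene Glp1r and the gene Umodl1 on the other strand. It had 9.85, 11.98 and 16.5 CPM in libraries labelled Fshb(+/-), against 0.121, 0.124 and 0.297 CPM in WT and 0.061, 0.073 and 0.246 CPM in Fshb(-/-), a log2 fold change of 6.08 ± 0.48 (SE; adjusted p = 0.00118). The strand setting of the counting is not given, so reads of the antisense RNA and of its partners cannot be told apart. Umodl1 had 5.20, 7.06 and 3.97 CPM in Fshb(+/-) and 7.81, 7.04 and 8.73 CPM in WT (-0.54 ± 0.21, log2 fold change and SE; adjusted p = 0.44). Dnah8, an axonemal dynein heavy chain gene at chr17:30624354-30877365 on the plus strand that overlaps the start of Glo1, had 14.3, 13.4 and 16 CPM in Fshb(+/-) and 7.57, 4.76 and 3.56 CPM in WT (log2 fold change 1.46 ± 0.25, SE; adjusted p = 0.138 by edgeR, 6.71e-05 by DESeq2 and 0.0438 by voom). Btbd9, on the other side of Glo1, had 56.1, 62.2 and 72.2 CPM in Fshb(+/-) and 50.3, 53.0 and 48.2 CPM in WT (0.33 ± 0.11; adjusted p = 0.385). Rsph1, a cilia gene that is also on the oviduct list, had 5.57, 5.31 and 41.0 CPM in Fshb(+/-) and 3.51, 2.78 and 2.85 CPM in WT, its high value coming from replicate 3. The remaining neighbours were mixed: Mdga1 and Abcg1, a sterol transporter, had log2 fold changes of 1.06 and 0.74, while Zfand3 and Cmtr1 had 0.03 and -0.04.

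**Figure D3:**
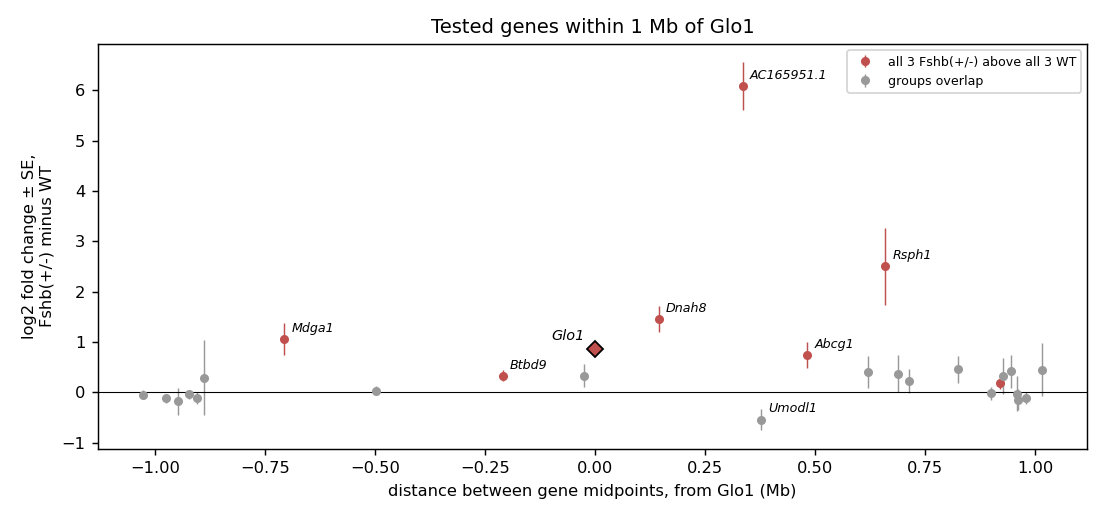
Log2 fold change of Fshb(+/-) minus WT with its SE for the 27 tested genes within 1 Mb of Glo1, against the distance of the gene's midpoint from that of Glo1 (diamond). Red points have all 3 Fshb(+/-) libraries above all 3 WT libraries; AC165951.1, at 6.08, stands far above the rest, and most genes lie near 0.

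Gm8909 lies in the class I region of the major histocompatibility complex at chr17:36164443-36168537. It had 29, 37 and 42 counts in libraries labelled Fshb(+/-), against 0, 1 and 0 in WT, and 0 CPM in all 3 libraries labelled Fshb(-/-). Its ratio was 114 with a counting interval of 19.9 to 4530, and the call was lost when any 1 library was left out (adjusted p from 0.079 to 0.19). It belongs to a family of similar genes, so its count is uncertain. The 27 tested genes with symbols beginning H2-, the histocompatibility genes, were looked at after this was seen. None was called by edgeR, DESeq2 called 5 and voom 4, all higher, including H2-Q2 by both and H2-DMb2 by DESeq2. Of all genes DESeq2 called 0.952% higher, and voom called 0.174% in either direction. At an unadjusted p under 0.05 by edgeR, 7 of the 27 were higher and 3 lower, against 5.48% and 4.87% of all genes. The median log2 fold change of the 27 was 0.38, against a median of -0.001 over all genes. H2-Q2 had 1.59, 2.07 and 2.60 CPM in Fshb(+/-) and 0.484, 0.247 and 0.475 CPM in WT, and H2-DMb2, a chain of the peptide-loading molecule of class II presentation, had 3.37, 5.50 and 2.93 CPM and 0.969, 0.989 and 0.594 CPM. H2-M3 ran the other way, with 8.51, 10.04 and 8.52 CPM in Fshb(+/-) and 11.1, 10.7 and 14.4 CPM in WT. The H2- genes called by DESeq2 were counted at low levels, averaging at most 5.38 CPM in Fshb(+/-). H2-D1 and H2-K1, the highest of the 27 in level, overlapped between the groups, with log2 fold changes of 0.51 and 0.009. The bins of chromosome 17 from 30 to 35 Mb and from 35 to 40 Mb held 8 and 6 of the DESeq2 calls, in 131 and 83 genes tested. Over all genes the share was 1.98%, and chromosome 17 as a whole held 20 in 846. These bins were picked after the calls were seen. Glo1, AC165951.1, Gm8909, H2-Q2 and H2-DMb2 are themselves among the calls counted, so the shares are no test.

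Nt5e encodes CD73, the surface enzyme that turns AMP into adenosine, and lies at chr9:88327197-88372092. It had 14.4, 13.3 and 17.2 CPM in libraries labelled Fshb(+/-), against 7.33, 6.30 and 6.89 CPM in WT. Values in Fshb(-/-) libraries were 28.7, 26.6 and 23.97 CPM, so the 3 genotypes did not overlap and the heterozygous libraries lay between the other two. The log2 fold change was 1.13 ± 0.14 in Fshb(+/-) (SE; adjusted p = 0.0279) and 1.95 ± 0.14 in Fshb(-/-) (SE; adjusted p = 0.000483), both against the same WT libraries. The heterozygous call held in 1 of the 6 settings that left out a library, with fold changes of 1.02 to 1.21 and adjusted p of 0.045 to 0.14, and did not hold in the fit of the 6 libraries alone (adjusted p = 0.19). It was also lost with a replicate block and with copies added to their closest genes. None of the 14 tested genes within 1 Mb was called by edgeR, and DESeq2 called 1, Zfp949, beside 1.98% of all genes. Zfp949, a zinc finger gene, had 51.0, 39.95 and 27.8 CPM in Fshb(+/-) and 11.3, 12.4 and 15.6 CPM in WT (log2 fold change 1.595 ± 0.35, SE; adjusted p = 0.188 by edgeR and 0.000962 by DESeq2). Of 16 tested genes of adenosine and purine signalling, Nt5e was the 1 called. By edgeR 3 had an unadjusted p under 0.05, all higher, against 5.48% of all genes. These were Nt5e, Alpl and Entpd2, the last an ectonucleotidase with 5.94, 4.66 and 9.56 CPM in Fshb(+/-) and 4.18, 3.65 and 3.86 CPM in WT.

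Among the 5 tested genes within 1 Mb of Fshb none was called by edgeR, and DESeq2 called 1, Mpped2, beside 1.98% of all genes. Mpped2, a metallophosphoesterase gene, had 14.2, 18 and 15.0 CPM in Fshb(+/-), against 28.9, 25.1 and 24.5 CPM in WT and 8.12, 10.3 and 11.7 CPM in Fshb(-/-). Its log2 fold change in Fshb(+/-) was -0.74 ± 0.16 (SE; adjusted p = 0.182 by edgeR and 0.00861 by DESeq2).

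Levels of the same genes in the other 2 experiments are given per total count. In the second experiment Nt5e had 6.61 to 10.2 CPM in ovaries labelled Fshb(-/-) HFSHB and 32.3 to 49.4 CPM in those labelled Fshb(-/-), with no overlap. The latter had 6.79 to 19.1 CPM of Inhba and 403 to 565 CPM of Amh. In the group labelled KO (anestrus), Nt5e had 39.6 to 52.7 CPM, Inhba 7.5 to 26.7 CPM and Amh 304 to 443 CPM. Ovaries labelled DE, PE or E had 9.48 to 36.8 CPM of Nt5e, 143 to 2010 CPM of Inhba and 47.1 to 164 CPM of Amh. Glo1 stayed between 106 and 137 CPM in every library of both experiments, between its WT and its Fshb(+/-) levels in the first. Gm15459 split the libraries within groups: among the 4 ovaries labelled Fshb(-/-) HFSHB it had 2.07, 0.540, 430 and 470 CPM, and among the 4 ovaries labelled PE it had 985, 0.976, 481 and 809 CPM. Gm10260 was at or under 2.17 CPM in every one of these libraries except the third labelled E, which had 179 CPM.

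**Figure D4:**
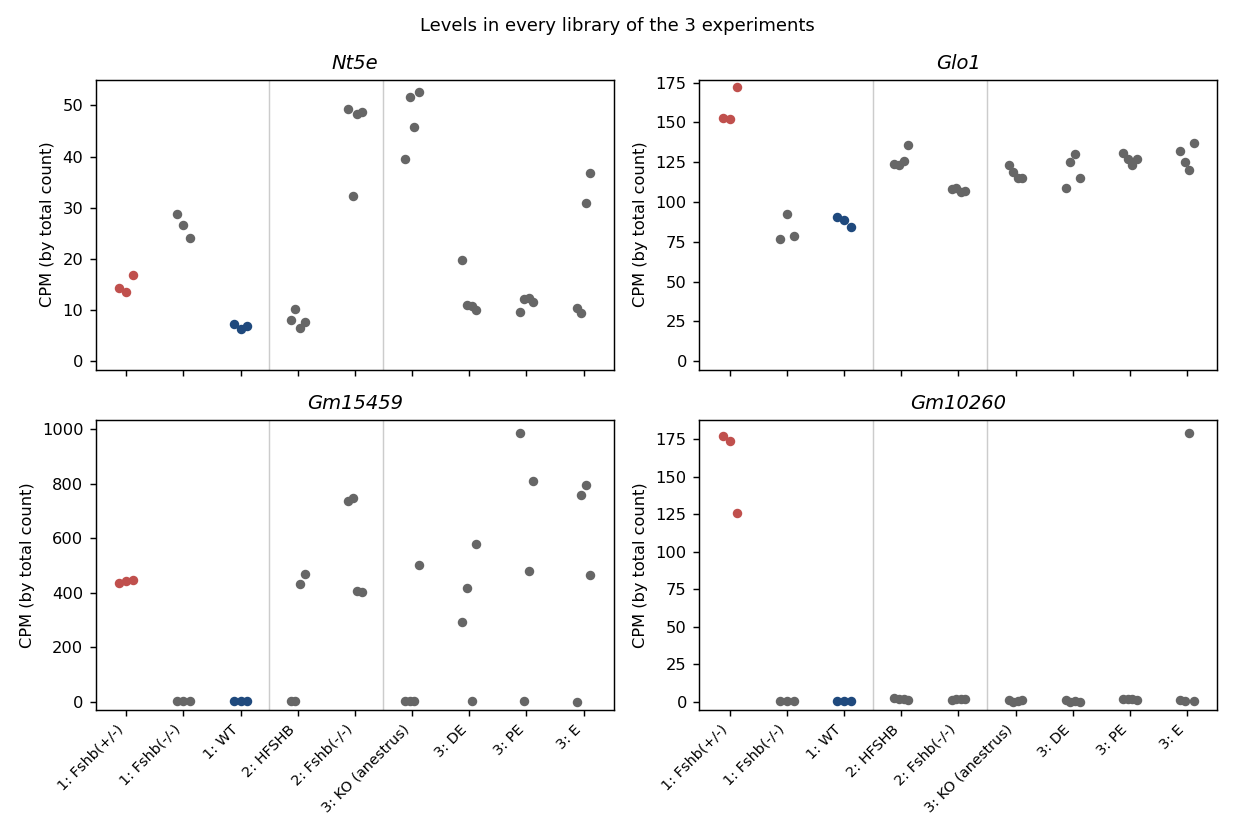
CPM per total count of Nt5e, Glo1, Gm15459 and Gm10260 in every library, one point per library, with vertical lines between the 3 experiments. Nt5e is above WT in both mutant groups of experiment 1, Gm15459 is high in some libraries and near 0 in others of each group of experiments 2 and 3 other than Fshb(-/-), where all 4 are high, and Gm10260 is high in the Fshb(+/-) libraries and in 1 library labelled E.

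Libraries were even in depth and uneven in tissue. The 6 libraries held 15.27 to 16.93 M counts. Replicate 3 labelled Fshb(+/-) stood apart: the oviduct epithelium markers, 11 of 15 of them tested, summed to 1680 CPM there, against 18.4 and 73.7 CPM in the other Fshb(+/-) libraries and 24.3 to 46.7 CPM in WT. Its Ovgp1, the oviductal glycoprotein, was at 935 CPM, against 3.86 and 39.95 CPM in the other Fshb(+/-) libraries and 2.91, 5.62 and 15.1 CPM in WT. Replicate 3 labelled WT had the lowest luteal marker sum, 9550 CPM, while the other WT libraries had 23400 and 20500 CPM and the Fshb(+/-) libraries 16700 to 30000 CPM. Without both, 15 genes were called, 8 of them among the 15 above.

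Granulosa genes of the FSH response tended to lower values in the libraries labelled Fshb(+/-). Of 30 tested genes Fshb was the 1 called by edgeR, while DESeq2 called Fshb and another 6, all 6 lower, against 1.03% of all genes. At an unadjusted p under 0.05 by edgeR another 10 were lower, against 4.87% of all genes, with Fshb the 1 higher. The median log2 fold change was -0.37, and 9 members had every Fshb(+/-) library below every WT library, against 9.19% of all genes. Without both replicates 3, 9 were lower and the median was -0.25. In bulk tissue, fewer cells of a type and less RNA per cell cannot be told apart. Cyp19a1 had 16.3, 37.8 and 34.2 CPM in Fshb(+/-), against 64.2, 123 and 51.7 CPM in WT and 5.998, 6.89 and 5.65 CPM in Fshb(-/-), so the heterozygous values lay below WT and above Fshb(-/-) with no overlap. Its log2 fold change in Fshb(+/-) was -1.44 ± 0.38 (SE), which missed the threshold by edgeR (adjusted p = 0.261) and passed it by DESeq2 (adjusted p = 0.00995). In Fshb(-/-) it was -3.69 ± 0.43 (SE; adjusted p = 0.00312).

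Inhba had 325, 498 and 364 CPM in Fshb(+/-), against 668, 1181 and 497.4 CPM in WT and 41.4, 30.4 and 37.4 CPM in Fshb(-/-). The heterozygous and WT values overlapped, the highest Fshb(+/-) library at 497.8 CPM and the lowest WT library at 497.4 CPM, and the log2 fold change of -0.98 ± 0.31 (SE) did not pass (adjusted p = 0.346). Inha, the inhibin alpha subunit, had 1668, 1323 and 1393 CPM in Fshb(+/-), against 1944, 2870 and 2782 CPM in WT (-0.79 ± 0.19; adjusted p = 0.196), while Fshb(-/-) libraries, at 2062, 2794 and 2271 CPM, overlapped WT. Grem1, an antagonist of bone morphogenetic proteins that cumulus cells make, had 3.79, 16.3 and 6.25 CPM in Fshb(+/-), against 36.2, 90.1 and 78.0 CPM in WT (-2.96 ± 0.58; adjusted p = 0.156). Nppc, the natriuretic peptide by which granulosa cells hold the oocyte in meiotic arrest, had 8.51, 8.29 and 6.25 CPM in Fshb(+/-) and 13.1, 19.03 and 22.6 CPM in WT (-1.25 ± 0.23; adjusted p = 0.143). Its receptor gene Npr2 had 101, 114 and 89.96 CPM in Fshb(+/-) and 123, 138 and 190 CPM in WT. Groups overlapped for Fshr, the FSH receptor, with 19.9, 22.5 and 23.4 CPM in Fshb(+/-) and 22.8, 45.2 and 25.5 CPM in WT (adjusted p = 0.52), and for Amh, the anti-Müllerian hormone of small follicles (231, 231 and 138 CPM against 206, 248 and 337 CPM; adjusted p = 0.593).

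The TGF-beta family, which shares Grem1, Inha, Inhba, Gdf9 and Bmp15 with other lists, had no gene called by edgeR among 36 tested. DESeq2 called 4, all lower, against 1.03% of all genes. At an unadjusted p under 0.05 by edgeR, 9 were lower and 1 higher, against 4.87% and 5.48% of all genes, and the median log2 fold change was -0.21. Bmp3 had 26.6, 46.0 and 47.7 CPM in Fshb(+/-) and 80.6, 87.6 and 68.3 CPM in WT (-0.98 ± 0.21; adjusted p = 0.18). Bmpr1b, a receptor of bone morphogenetic proteins, had 68.7, 75.4 and 87.6 CPM in Fshb(+/-) and 104, 112 and 175 CPM in WT.

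Oocyte genes had the lowest list median. None of 33 tested was called by edgeR, and DESeq2 called 5, all lower, against 1.03% of all genes. By edgeR at an unadjusted p under 0.05, 16 were lower and none higher, against 4.87% and 5.48% of all genes. The log2 fold change was below 0 in 31 of the 33, with a median of -0.47. Leaving out both replicates 3 gave 8 lower, 1 higher and a median of -0.38, and leaving out replicate 1 labelled Fshb(+/-) or replicate 2 labelled WT gave 9 lower each. Npm2, an oocyte histone chaperone, had 9.73, 13.9 and 10.1 CPM in Fshb(+/-), against 16.2, 19.7 and 17.9 CPM in WT and 32.2, 33.1 and 31.7 CPM in Fshb(-/-). Oosp1 had 6.36, 7.58 and 5.59 CPM in Fshb(+/-), against 9.57, 11.2 and 11.9 CPM in WT and 19.9, 21.7 and 18.9 CPM in Fshb(-/-). Gdf9, an oocyte growth factor that acts on granulosa cells, had 51.8, 80.5 and 49.96 CPM in Fshb(+/-), against 70.2, 93.8 and 88.3 CPM in WT and 139, 143 and 159 CPM in Fshb(-/-). For Npm2 and Oosp1 the heterozygous libraries lay below WT, for Gdf9 they overlapped WT, and the Fshb(-/-) libraries lay above WT for all 3. All Fshb(-/-) libraries exceeded all WT libraries for 30 of the 33 genes, against 18.2% of all genes. The list was chosen with earlier results of these data known, so this contrast is not an independent test. Summed over the list, libraries labelled Fshb(+/-) had 601, 895 and 593 CPM and WT libraries 802, 1030 and 893 CPM, which overlap through replicate 2 of Fshb(+/-).

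Matrix and interferon genes leaned the other way. Of 20 tested collagen and matrix genes none was called by edgeR, and DESeq2 called 2, both higher, against 0.952% of all genes. By edgeR at an unadjusted p under 0.05, 9 were higher and none lower, against 5.48% and 4.87% of all genes. The median log2 fold change was 0.41. Without both replicates 3 the count was again 9, while it was 5, 4 and 3 without replicate 1, 2 or 3 labelled WT alone. Fn1, fibronectin, had 438, 406 and 444 CPM in Fshb(+/-), against 221, 260 and 215 CPM in WT and 113, 83.3 and 124 CPM in Fshb(-/-), with a log2 fold change of 0.89 ± 0.15 in Fshb(+/-) (SE; adjusted p = 0.138). Col1a1, a chain of type I collagen, had 1544, 785 and 703 CPM in Fshb(+/-) and 566, 587 and 552 CPM in WT. Postn, periostin, had 13.8, 14.4 and 104 CPM in Fshb(+/-) and 8.54, 8.16 and 9.03 CPM in WT, and its highest value came from the library with the oviduct markers. Of 22 interferon response genes none was called by edgeR or DESeq2, 9 were higher at an unadjusted p under 0.05 and the median was 0.28; 5 were higher without replicate 2 labelled WT, and without both replicates 3, 4 were higher and 1 lower. Irf7, the transcription factor of the type I response, had 21.6, 21.4 and 22.0 CPM in Fshb(+/-) and 17.3, 16 and 11.9 CPM in WT (0.52 ± 0.15; adjusted p = 0.284). Mx2, an antiviral GTPase, had 2.45, 5.44 and 4.88 CPM in Fshb(+/-) and 1.82, 2.10 and 1.66 CPM in WT.

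**Figure D5:**
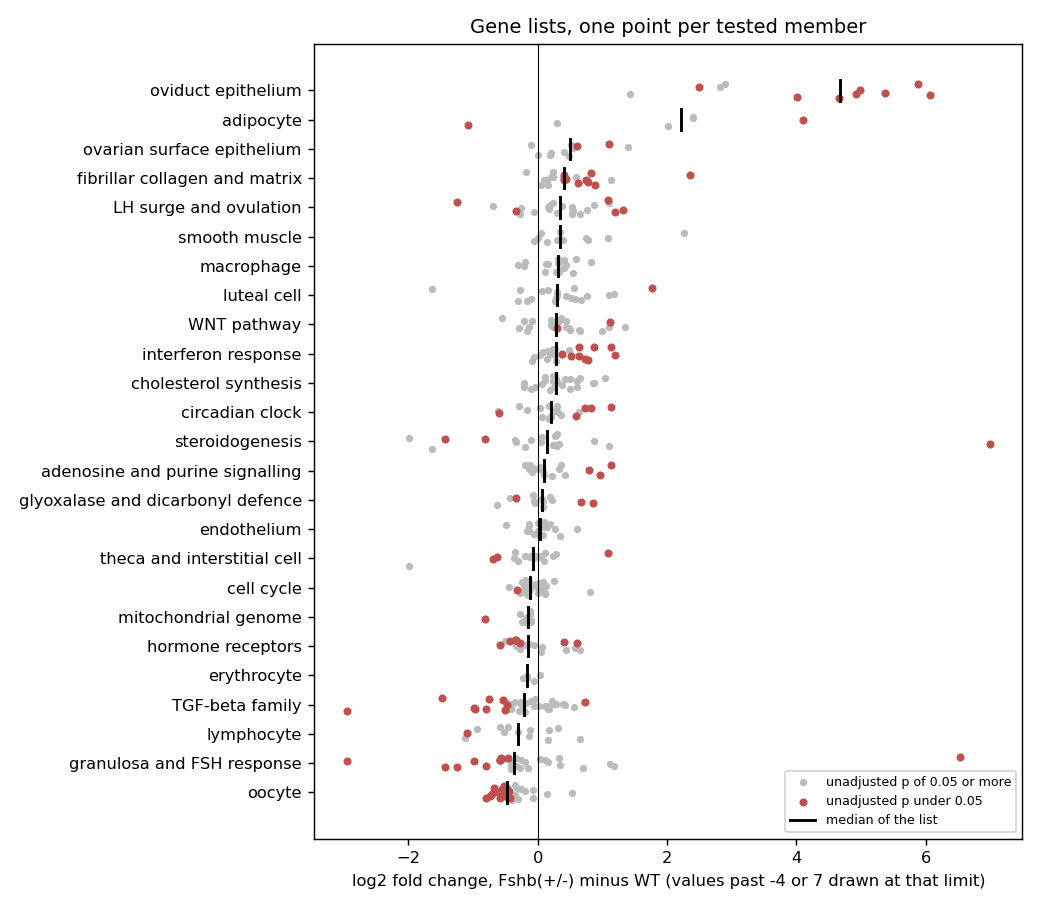
Log2 fold change of Fshb(+/-) minus WT for each tested member of the 25 gene lists, ordered by list median (black bar), with red points at an unadjusted p under 0.05. The oocyte list has the lowest median, -0.47, and the oviduct list the highest, 4.67, with its high sum in replicate 3 labelled Fshb(+/-); the single high granulosa point is Fshb.

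Clock genes mostly leaned higher, with log2 fold changes above 0 in 15, below 0 in 4 and a median of 0.21. Of 19 tested none was called by edgeR, and DESeq2 called 2, both higher, against 0.952% of all genes. At an unadjusted p under 0.05 by edgeR, 4 were higher and 1 lower, against 5.48% and 4.87% of all genes. Nr1d1, a repressor of the clock, had 246, 192 and 182 CPM in Fshb(+/-), against 140, 131 and 142 CPM in WT (0.59 ± 0.12; adjusted p = 0.156), and Dbp, an output factor, had 268, 131 and 182 CPM against 111, 90.3 and 63.7 CPM (1.13 ± 0.27; adjusted p = 0.197). Arntl, the activator that Nr1d1 represses, had 9.24, 11.5 and 12.4 CPM in Fshb(+/-) and 13.4, 16 and 20.8 CPM in WT (-0.61 ± 0.18; adjusted p = 0.306). The hour of collection was not among the labels, and its part in these values was not tested.

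Luteal and steroid genes varied widely within both groups. Star, which carries cholesterol into mitochondria, had 1682, 361 and 2821 CPM in Fshb(+/-) and 1561, 576 and 129 CPM in WT. Cyp11a1, which cleaves the cholesterol side chain, had 4554, 4153 and 7077 CPM in Fshb(+/-) and 5306, 5177 and 2361 CPM in WT, and Lhcgr, the receptor of luteinizing hormone, had 441, 610 and 1007 CPM and 1201, 784 and 513 CPM. Adjusted p was 0.73, 0.81 and 0.841 for the 3 genes, and Pgr, the progesterone receptor, likewise had overlapping groups (1.59, 3.30 and 11.1 CPM against 1.57, 2.22 and 6.30 CPM; adjusted p = 0.817). The luteal list had 1 of 20 genes higher at an unadjusted p under 0.05 by edgeR, near the 5.48% of all genes. Its median log2 fold change was 0.30, which became -0.11 without both replicates 3. Cyp11b1, the 11-beta-hydroxylase best known from the adrenal cortex, had 16.4 CPM in replicate 1 labelled Fshb(+/-), 0.518 and 0.846 CPM in the other Fshb(+/-) libraries and 0 in all WT libraries.

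By edgeR no gene was called in the other lists except Glo1 among the 13 of glyoxalase and dicarbonyl defence. DESeq2 called 2 of 12 higher in the ovarian surface epithelium list, 2 of 18 lower among hormone receptors, and 1 higher each in the oviduct and the LH surge lists, with 11 and 22 tested. It called 1 lower each in the theca, steroidogenesis and mitochondrial lists, with 18, 20 and 13 tested. Of all genes DESeq2 called 0.952% higher and 1.03% lower. The medians of the other lists ran from -0.30 for lymphocyte genes to 0.50 for ovarian surface epithelium, apart from the oviduct list and the adipocyte list (2.21 over 6 tested genes), whose summed levels overlapped at 18.6 to 66.6 CPM in Fshb(+/-) and 33.5 to 66.8 CPM in WT. Without replicate 3 labelled Fshb(+/-) the medians became -1.09 for adipocyte, 0.07 for surface epithelium and 0.15 for oviduct genes, and those of smooth muscle and cholesterol synthesis, 0.34 and 0.28 with it, became -0.32 and -0.43. Muc16, a mucin of the surface epithelium, had 24.2, 19.9 and 23.1 CPM in Fshb(+/-) and 12.05, 11.6 and 7.48 CPM in WT (1.11 ± 0.25; adjusted p = 0.193). The macrophage, endothelium, smooth muscle, erythrocyte and cholesterol synthesis lists had no gene at an unadjusted p under 0.05 by edgeR over all libraries. Without both replicates 3, 6 of the macrophage genes were higher and 7 of 24 cholesterol synthesis genes lower by that measure. Among all 17471 genes of that fit, 989 were higher and 733 lower. Without replicate 3 labelled Fshb(+/-) alone, 3 of 11 smooth muscle genes were lower, beside 792 of all 17611 genes. All 18 macrophage and 18 endothelium markers were tested, and their summed levels overlapped between the groups.

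Among DESeq2 calls with established names and a mean of at least 5 CPM, the genes with the largest fold changes did not pass by edgeR, and in several, including Ak7, Cfap54, Slc14a1, Scrn1, Cpxm2 and Comp, 1 library stood apart within its group. Ugt1a6a, a glucuronosyltransferase, had 67.7, 19.7 and 32.7 CPM in Fshb(+/-), against 8.42, 8.28 and 7.72 CPM in WT and 46.1, 52.6 and 55.2 CPM in Fshb(-/-) (2.30 ± 0.39; adjusted p = 0.143). Ifi202b, an interferon-inducible DNA sensor, had 5.08, 14.1 and 15.2 CPM in Fshb(+/-) and 0.182, 0.247 and 0.119 CPM in WT (5.91 ± 1.09; adjusted p = 0.148). Sfrp2, a secreted WNT modulator, had 33.4, 22.7 and 5.07 CPM in Fshb(+/-) and 1.82, 3.58 and 2.14 CPM in WT. Apln, the ligand of the apelin receptor, had 83.7, 68.8 and 19.2 CPM in Fshb(+/-) and 14.7, 10.01 and 5.35 CPM in WT. Ak7 and Cfap54, genes of motile cilia, were highest at 47.6 and 34.8 CPM in the library with the oviduct markers, while their other Fshb(+/-) values were 7.71 and 4.53 CPM for Ak7 and 6.36 and 5.37 CPM for Cfap54. On the lower side, Kcnq5, a potassium channel, had 9.61, 10.2 and 13.2 CPM in Fshb(+/-), against 42.1, 21.8 and 38.4 CPM in WT and 47.2, 34.5 and 40.4 CPM in Fshb(-/-) (-1.63 ± 0.25; adjusted p = 0.0952). Phex, a membrane endopeptidase of phosphate control, had 3.43, 4.27 and 3.51 CPM in Fshb(+/-), against 15.4, 9.33 and 13.5 CPM in WT and 1.64, 0.293 and 1.84 CPM in Fshb(-/-). Mt3, a metallothionein, had 5.57, 4.597 and 8.26 CPM in Fshb(+/-), against 10.4, 20.1 and 30.6 CPM in WT and 41.8, 58.9 and 46.8 CPM in Fshb(-/-). Comp, a cartilage matrix protein, had 0.979, 1.62 and 1.63 CPM in Fshb(+/-), against 3.996, 58.2 and 7.42 CPM in WT, where replicate 2 stood apart.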

How the data were processed

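The authors deposited 1 table of estimated counts per gene (expected counts) for 54347 identifiers in 33 libraries. The submitters' processing notes name Salmon, DESeq2 and the build GRCm38; versions, annotation and strand setting were not given in the sources used here. In the 6 libraries 19.2% to 19.8% of values were not whole, and counts were rounded. GENCODE M21 gave symbols for 54094 identifiers (53307 with version). The 9 libraries of the first experiment were fitted with edgeR 4.0.16 in R 4.3.3 (TMM, filterByExpr, robust glmQLFit, glmQLFTest), contrast Fshb(+/-) minus WT, Benjamini-Hochberg adjusted over 17223 genes at 0.05. DESeq2 1.42.0 and limma 3.58.1 (voom with quality weights), other filters and scalings, a replicate block, libraries left out and an oviduct covariate were alternatives. Copies were matched with BLAST 2.17.0 (identity of at least 90% over at least 80% of the copy). The test was checked on simulated data. Counts of libraries within a group, compared pair by pair, differed by more than sampling noise (chi-square over degrees of freedom 21.4 to 65.9). Named genes were a fixed panel, every called gene, up to 10 genes each way by DESeq2 with a mean of at least 5 CPM and no overlap, up to 3 genes of each of 25 lists, and genes within 1 Mb of called genes; further members of lists and the H2- genes were added after their values were seen. The members and lists were chosen with earlier results of these data known, so counts over a list beside the share of all genes are not independent tests. The closest genes of Gm14176 and Gm29718 are not reported here.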

Additional observations from a re-analysis of the deposited data

Results flagged for a closer look

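Over the 61 sets of 4 libraries of experiments 2 and 3 in which a called gene was examined, 9 held a library set apart from its group by its gap to the others. The cut-off is one that about 1 in 20 sets of independent, normally distributed values would pass. These sets share libraries and many hold low counts, so 9 of 61 cannot be set against that rate. Most of the 9 came from replicate 4 labelled KO (anestrus) and replicate 3 labelled E. In the group labelled KO (anestrus) for stage and WT for genotype, replicate 4 had 500.0 CPM (per total count) of Gm15459, 5.33 CPM of Gm9008 and 0.643 CPM of Gm13410, while its other libraries reached 1.12, 0.0748 and 0 CPM. In the group labelled E, replicate 3 had 179 CPM of Gm10260, 48.6 CPM of Gm11361, 7.80 CPM of Rps18-ps3 and 5.71 CPM of Gm13443, while the others reached 1.06, 0.188, 1.33 and 0.0919 CPM. The genes set apart in each library are copies whose closest genes share a chromosome, 9 in the first case and 17 in the second. Nt5e was at 32.3 CPM in replicate 2 labelled Fshb(-/-) of experiment 2, with 48.4 to 49.4 CPM in the others, and at 19.9 CPM in replicate 1 labelled DE, with 10.1 to 11.1 CPM in the others.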

How the results depend on the processing

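Against 15 genes called, DESeq2 called 341, voom with quality weights 30 (0.174%), a fit with the oviduct index as a covariate 37, and the fit with copies added to their closest genes 3. The cause of the first 3 gaps was not tested. In the last the copies are no longer tested apart, and Nt5e and Gm8909, which have no matched closest gene, also lost their calls. Median-of-ratios scaling gave 15, no filter 22, a mean of at least 1 CPM 11, and the 6 libraries alone 11, of which 7 were among the 15. Leaving out 1 library at a time gave 9 to 14 calls, of which 8 or 9 were among the 15, and leaving out both replicates 3 gave 15. AC165951.1, Fshb, Gm10260, Gm13410, Gm13443, Gm15459, Gm9008 and Rps18-ps3 were called in all 6 of these settings. Replicate numbers did not pair the libraries: deviations of same-numbered libraries correlated at -0.081, 0.097 and -0.039, and a replicate block gave 7 calls. No called gene changed direction in any alternative. With 3 libraries a group and 15.27 to 16.93 M counts, genes at a few counts are known only within wide intervals.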
